A study of Mus musculus with 40 samples.

Results

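Cholinergic transmission genes are the genes whose products make acetylcholine, load it into vesicles, take choline back up, break the transmitter down and sense it. The members were chosen by gene symbol through the Ensembl identifiers of the count table: *Chat*, *Slc18a3*, *Slc5a7*, *Slc10a4*, *Ache*, *Bche*, *Chrna3*, *Chrna4*, *Chrna7* and *Chrnb2*, which are 10 of the 55487 genes in the table. The study differentiated mouse embryonic stem (ES) cells into astrocyte-like cells of brainstem and spinal character (ES-astrocytes) and into motor neurons (ES-motor neurons), and asked how ES-astrocytes exposed to inflammatory mediators act on ES-motor neurons in co-culture. Both cell types came from 1 ES cell line, not sold commercially, made from B6.Cg-Tg(Hlxb9-GFP)1Tmj/J mice, in which the promoter of Hb9 (gene *Mnx1*) drives GFP. Polyadenylated RNA was sequenced from 40 libraries of about 200 sorted cells each, 20 for each cell type.

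Each cell type had 5 groups of 4 biological replicates, lettered A to D. The ES-astrocytes had received control medium, IL-1α with TNF-α, C1Q with C5, IL-1β with IL-6, or TGF-β2 for 24 h, and an ES-motor neuron group is named here after what the ES-astrocytes below it had received. ES-motor neurons were sorted on GFP before they were plated on ES-astrocytes, and the cell types were separated again by sorting, so *Mnx1* itself served to choose the cells. In the paper's terms, replicates go back to different vials of ES cells of a set passage. The p-values measure the spread between these libraries, part of which may be technical. Control and IL-1α with TNF-α libraries carried one plate index and the other 3 stimuli another, and the second index primer differed between the cell types, so an index cannot be told apart from the cell type, or from those 3 stimuli where they are set against control.

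Total counts ran from 1510823 to 16054290 in ES-astrocyte libraries (median 4670241.5) and from 6557 to 19717324 in ES-motor neuron libraries (median 1213482). In 9 libraries, all of ES-motor neurons, the total was under 20% of the median of the 40 libraries (2459460.5 counts): all 4 of IL-1α with TNF-α, replicate A of C1Q with C5, replicates B and D of IL-1β with IL-6, replicate A of TGF-β2 and replicate C of control. These 9 are called shallow here. Levels are given as CPM, counts per 1000000 counts of the library, with library totals scaled by trimmed means of M-values. A count of 0 allows up to 3 counts. On unscaled totals this is 0.187 to 1.99 CPM in ES-astrocyte libraries and 0.152 to 458 CPM in ES-motor neuron libraries. On scaled totals each limit is divided by the scaling factor of its library, which is 2.26 for the library of 458 CPM. These limits and the intervals below cover counting error alone.

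Acetylcholine is made from choline and acetyl-CoA by choline acetyltransferase, pumped into synaptic vesicles by the vesicular acetylcholine transporter, and split in the synaptic cleft by acetylcholinesterase, after which a high-affinity transporter returns choline to the nerve ending. Motor neurons of the spinal cord and brainstem release it at the neuromuscular junction and onto central targets. Nicotinic receptors are ion channels of 5 subunits, built from α subunits alone or from α with β subunits, and neurons and autonomic ganglia use subunits other than those of muscle.

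The labels were compared with marker genes first. Neuron markers (10 genes, among them *Tubb3*, *Stmn2* and *Nefl*) summed to 3502 to 11717 CPM in ES-motor neuron libraries, with a median of 8169 CPM. They also summed to 1829 to 3878 CPM, median 2616 CPM, in libraries of ES-astrocytes. Astrocyte markers (10 genes) summed to 628 to 3068 CPM in ES-astrocyte libraries and to between 0 and 732 CPM in ES-motor neuron libraries. Of that list *Fabp7*, a fatty acid binding protein of radial glia, was the most abundant in ES-astrocytes by mean, while *Gfap*, *Aqp4* and *Aldh1l1*, markers of mature astrocytes, had no count in any of the 20 ES-astrocyte libraries. The glutamate transporter gene *Slc1a2* (mean 128 CPM) and *Cd44* (121 CPM) were detected in all 20 of them, beside means of 18.1 and 2.15 CPM in ES-motor neurons. The name ES-astrocyte stands here for the label of the libraries, which held RNA of astrocyte and of neuron markers.

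Compared per length, as CPM per kilobase of merged exons, the order of the members differed between the cell types. In control ES-motor neurons the level of *Slc10a4* was 75.6 ± 19 CPM per kb (SD, n = 4) and that of *Slc18a3* 20.3 ± 17.3 CPM per kb. The lowest *Slc10a4* library (61.8 CPM per kb) lay above the highest *Slc18a3* library (44.4 CPM per kb), so these neighbours in the order were separated. Levels of *Chrnb2* (5.53 ± 2.58 CPM per kb), *Slc5a7* (4.69 ± 0.494), *Chat* (3.01 ± 2.18) and *Chrna4* (2.84 ± 0.983) followed (SD, n = 4), and each differed from its neighbour by less than the SD of 1 of the pair. *Chrna7* stood at 1.22 ± 1.91 CPM per kb, and *Ache*, *Bche* and *Chrna3* were at or near 0. In control ES-astrocytes the receptor subunits led: *Chrna4* at 7.79 ± 3.31, *Chrna3* at 4.51 ± 1.91 and *Chrnb2* at 3.23 ± 3.66 CPM per kb (SD, n = 4), with neighbours again within 1 SD. *Slc5a7*, *Ache* and *Bche* had no count in these 4 libraries.

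**Figure D1:**
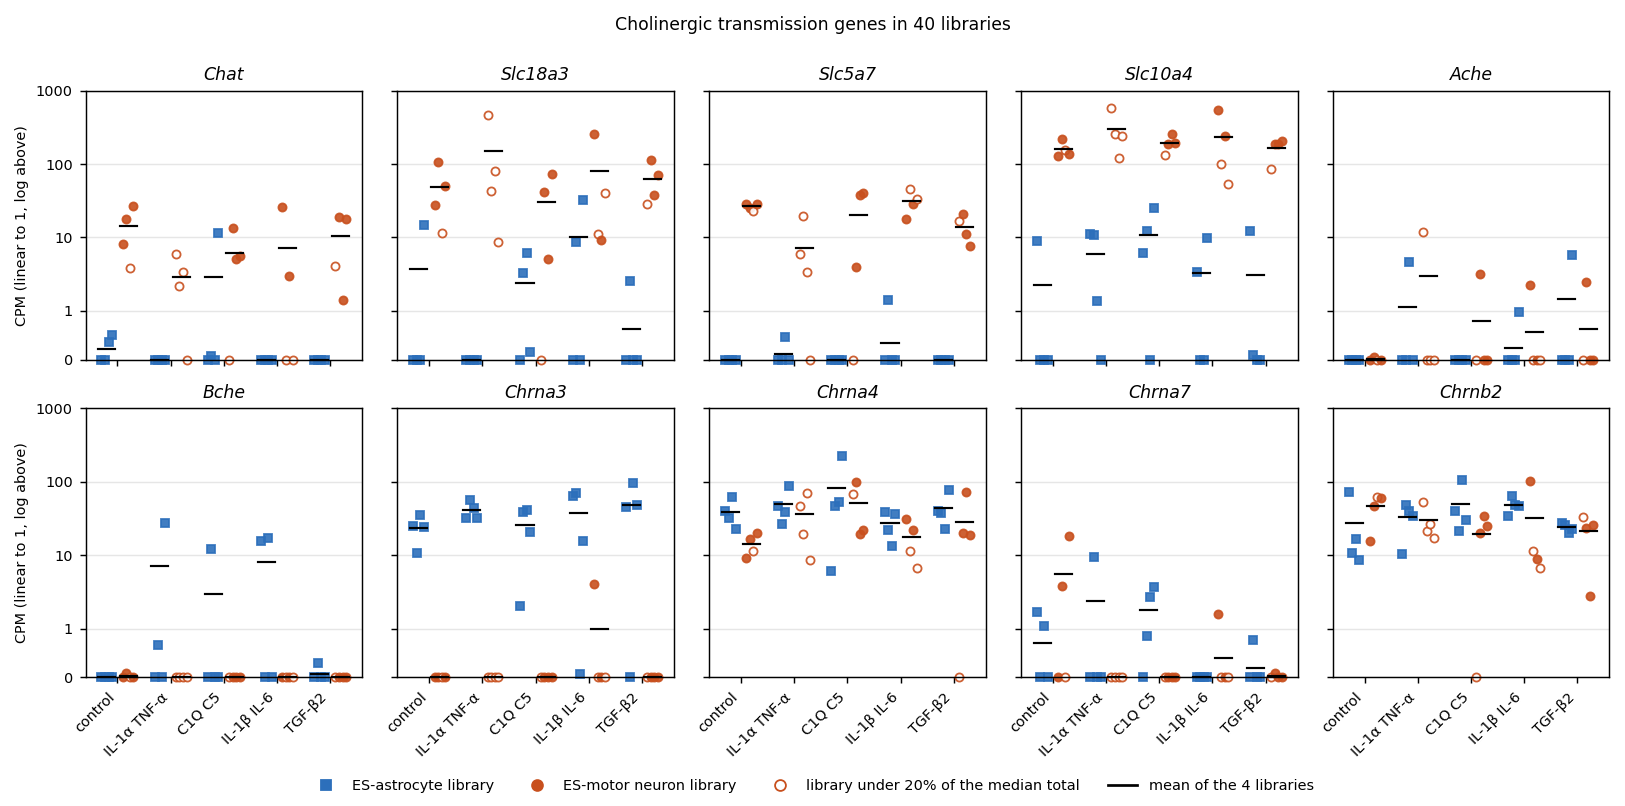
Level of each member in every library, in CPM on an axis linear to 1 and log above, by cell type and treatment, with shallow libraries as open points and the mean of each 4 libraries as a bar. *Slc10a4* lies higher in each of the 20 ES-motor neuron libraries than in any ES-astrocyte library, and *Chrna3* has no count in 19 of the 20 ES-motor neuron libraries.

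*Chat* (ENSMUSG00000021919, chromosome 14, 32408203 to 32465989, minus strand, GRCm38) encodes choline acetyltransferase, the enzyme that makes acetylcholine. In control ES-motor neurons its level was 8.13, 18.0, 3.84 and 26.7 CPM in replicates A to D, from 9, 352, 1 and 56 counts. On ES-astrocytes that had received TGF-β2 the values were 4.13, 18.7, 1.40 and 18.0 CPM, and with C1Q and C5 they were 0, 13.5, 5.12 and 5.64 CPM. Every library of the control and TGF-β2 groups held a *Chat* count, and the shallow ones among them rested on 1 count each. With IL-1β and IL-6 the values were 26.0, 0, 2.99 and 0 CPM, and with IL-1α and TNF-α 5.90, 2.15, 3.35 and 0 CPM, the latter from 1, 1, 1 and 0 counts. In the 11 ES-motor neuron libraries that were not shallow *Chat* was always detected, between 1.40 and 26.7 CPM with a median of 13.5 CPM, a spread of over 10 times within 1 sorted cell type.

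Among the 20 ES-astrocyte libraries *Chat* was detected in 4. Control replicates C and D had 0.364 and 0.513 CPM, and with C1Q and C5 replicate B had 0.0851 and replicate D 11.5 CPM. That last library held 75 of the 80 *Chat* counts of all ES-astrocyte libraries. ES-motor neuron and ES-astrocyte groups did not overlap under control medium and under TGF-β2, and they overlapped under the other 3 treatments. In control, summed counts were 418 against 4, and 352 of the 418 came from the deepest library, replicate B.

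*Slc18a3* (ENSMUSG00000100241, chromosome 14, 32462438 to 32464850, minus strand) encodes the vesicular acetylcholine transporter and lies within the span of *Chat*, with 0 exon bases shared. Control ES-motor neurons had 28.0, 107, 11.5 and 49.6 CPM in replicates A to D, and those with TGF-β2 28.9, 115, 37.9 and 71.9 CPM. With C1Q and C5 the values were 0, 41.4, 5.12 and 73.6 CPM. The transporter was thus detected in 11 of these 12 libraries, the exception being the shallow replicate A of C1Q with C5. With IL-1β and IL-6 the values were 259, 11.3, 9.36 and 40.1 CPM, and with IL-1α and TNF-α 472, 43.1, 80.3 and 8.65 CPM. Replicate A stood far above its 3 partners in both of these groups. In ES-astrocytes 13 of 20 libraries had no count, and the highest were replicate D of IL-1β with IL-6 (32.3 CPM) and replicate D of control (14.7 CPM). Groups of the cell types did not overlap under IL-1α with TNF-α and under TGF-β2, while in control the library of 14.7 CPM lay within the ES-motor neuron range.

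The 5′ end of *Chat* is also overlapped on the opposite strand by the noncoding gene *Gm2990*, with 4370 counts summed over ES-motor neurons and 390 over ES-astrocytes. It shares 0 exon bases with *Chat* in the annotation, but whether counting used strand is not given in the sources used here, so reads of introns or unannotated exons of the 3 genes could not be assigned with certainty.

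*Slc5a7* (ENSMUSG00000023945, chromosome 17, 54273590 to 54299034, minus strand) encodes the high-affinity choline transporter that returns choline to the nerve ending. In control ES-motor neurons it was close to constant, at 28.9, 25.4, 23.0 and 28.6 CPM in replicates A to D. With IL-1β and IL-6 the values were 17.9, 45.1, 28.7 and 33.4 CPM, and with TGF-β2 16.5, 20.7, 11.2 and 7.70 CPM. All libraries of these 3 groups lay above every ES-astrocyte library. With C1Q and C5 the values were 0, 3.98, 37.9 and 39.8 CPM, and with IL-1α and TNF-α 5.90, 19.4, 3.35 and 0 CPM from 1, 9, 1 and 0 counts. In ES-astrocytes 18 of 20 libraries had no count, and the other 2 had 0.459 CPM (replicate C of IL-1α with TNF-α, 1 count) and 1.41 CPM (replicate B of IL-1β with IL-6, 7 counts). The highest ES-astrocyte library was thus below 18 of the 20 ES-motor neuron libraries, the 2 others having no count and being shallow. Against no count in control ES-astrocytes, the 596 counts of control ES-motor neurons make the level at least 250.3-fold higher, taking 3 counts over the group as the limit.

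*Slc10a4* (ENSMUSG00000029219, chromosome 5, 73006883 to 73012955, plus strand) encodes a vesicular protein of the sodium and bile acid co-transporter family found in cholinergic and monoaminergic neurons. In control ES-motor neurons its level was 130.1, 217, 154 and 135 CPM in replicates A to D. With C1Q and C5 it was 135, 188, 255 and 192 CPM, and with TGF-β2 86.8, 185, 186 and 209 CPM. These 12 libraries lay within 3 times of each other although their totals differed widely. Replicate A of C1Q with C5 had a total of 6557 counts, where 3 counts are 458 CPM on the unscaled total. Its closeness to the others is thus within counting error. With IL-1β and IL-6 the values were 537, 101, 239 and 53.4 CPM, and with IL-1α and TNF-α 572, 256, 120.5 and 242 CPM. It was the only member detected in all 20 ES-motor neuron libraries, and all 20 lay above the highest ES-astrocyte library. ES-astrocytes held it in 11 of 20 libraries, with a lowest value of 0, a median of 0.737 and a highest value of 25.5 CPM, again in replicate D of C1Q with C5. In control ES-astrocytes its 84 counts all came from replicate A, at 8.95 CPM. Summed over the 5 treatments the ratio was 49.0 (95% Clopper-Pearson interval 45.4 to 52.9).

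Of the ES-astrocyte libraries, replicate D of C1Q with C5 held the most *Chat* and *Slc10a4*, and control replicate A held all the *Slc10a4* of its group. *Mnx1*, which specifies motor neurons, was at 19.7 and 21.2 CPM in these libraries and at most at 5.70 CPM in the other 18 of ES-astrocytes. *Isl1*, another motor neuron factor, did not stand out there, at 24.0 and 12.4 CPM. Its median over all ES-astrocyte libraries was 16.6 CPM and its highest value 67.5 CPM. *Slc18a3* was at 32.3 CPM in ES-astrocyte replicate D of IL-1β with IL-6 and at 14.7 CPM in control replicate D. *Mnx1* was at 2.94 and 0.171 CPM there. Replicate A of TGF-β2, with *Slc10a4* at 12.2 CPM, had *Mnx1* at 2.65 CPM. All these libraries were singled out after their values were seen, and the part of motor neuron RNA in these values was not tested. In bulk samples like these, fewer cells of a type and less RNA per cell cannot be told apart.

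The first comparison set the ES-motor neurons of control medium against the ES-astrocytes of control medium, to show how the cell types differ without a stimulus. Of the 10 members 7 passed the filter on low counts and were tested. In the quasi-likelihood test of edgeR the call rule was an adjusted p (Benjamini-Hochberg) of at most 0.05 with a log2 fold change beyond 1 in size. 1 member, *Slc5a7*, was called higher in ES-motor neurons, where 0.569% of the 10199 genes tested were called higher, and 1, *Chrna3*, was called lower, where 1.67% were. *Slc5a7* had a log2 fold change of 10.45 (SE 1.62) and an adjusted p of 0.0151 by the quasi-likelihood test of edgeR (Benjamini-Hochberg), higher in 4 of 4 libraries. Its call did not hold without any 1 of the ES-motor neuron libraries, at adjusted p of 0.0605 (A left out), 0.0617 (B left out), 0.0616 (C left out) and 0.0575 (D left out), and over all alternatives its adjusted p ran from 7.5e-13 to 0.131. The fitted fold depends on the prior count, since *Slc5a7* had no count in control ES-astrocytes.

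Another 3 genes of the same side did not pass that threshold in control. *Slc10a4* had a log2 fold change of 6.04 (SE 1.48) and an adjusted p of 0.0633 by the same quasi-likelihood test of edgeR (Benjamini-Hochberg). Without replicate A of the ES-astrocytes, the 1 control ES-astrocyte library that held *Slc10a4*, the adjusted p was 3.8e-05 with a log2 fold change of 12.95, and over all alternatives it ran from 3.8e-05 to 0.160, with calls by DESeq2 and by limma-voom. *Chat* had a log2 fold change of 6.10 (SE 1.75) and an edgeR quasi-likelihood, Benjamini-Hochberg adjusted p of 0.123, with a range over alternatives from 0.00017 with DESeq2 to 0.391. *Slc18a3* had 3.75 (SE 1.78) and an edgeR adjusted p of 0.497. Without replicate D of the ES-astrocytes, the library of 14.7 CPM, it was called at 0.0146 with a log2 fold change of 11.43. Its edgeR adjusted p over all alternatives was 0.0146 to 0.743. In the 2 fits without replicate A or D, no ES-astrocyte library left held a count of the gene in question. Those fitted folds therefore depend on the prior count. In 5 of the 10 members the 4 ES-motor neuron and the 4 ES-astrocyte libraries did not overlap, *Chat*, *Slc5a7* and *Slc10a4* higher and *Chrna3* and *Chrna4* lower in ES-motor neurons, as against 10.7% of all genes tested (1092 of 10199).

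The second comparison took the cell types over all 5 treatments in 1 fit of 40 libraries, in which shallow libraries weigh less. *Chat*, *Slc18a3*, *Slc5a7* and *Slc10a4*, all 4 presynaptic members, were called higher in ES-motor neurons, where 3.76% of 11928 genes tested were called higher. Over all genes edgeR called 448 higher and 1215 lower, whereas limma-voom called 1544 of the same genes higher and 854 lower. The log2 fold change was 7.93 (SE 0.77) for *Slc5a7*, 5.59 (SE 0.62) for *Slc10a4*, 6.10 (SE 1.02) for *Chat* and 5.00 (SE 0.86) for *Slc18a3*. Their adjusted p were 1.8e-11, 9.8e-10, 7.4e-06 and 1.2e-05 by the quasi-likelihood test of edgeR (Benjamini-Hochberg). Each of the 4 was also called in all 15 alternatives, among them those without the shallow libraries and without any 1 replicate letter, and 5 chosen after seeing the data that left out 1 treatment each. Over these the log2 fold change of *Chat* ran from 5.24 to 7.50 and that of *Slc18a3* from 4.23 to 6.38. The range was 6.50 to 8.98 for *Slc5a7* and 5.34 to 7.22 for *Slc10a4*.

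**Figure D2:**
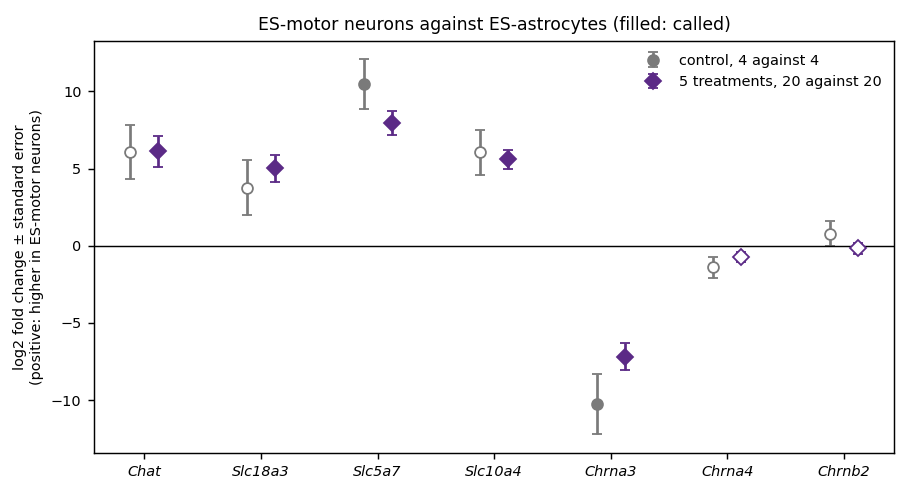
Log2 fold change of ES-motor neurons over ES-astrocytes for the 7 members that passed the filter on low counts, with bars of 1 SE, for the control libraries and for the 5 treatments together. Over the 5 treatments *Slc5a7*, *Slc10a4*, *Chat* and *Slc18a3* lie between 5.00 and 7.93 and *Chrna3* at −7.20, while *Chrna4* (−0.72) and *Chrnb2* (−0.17) were not called. Filled points were called.

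The genes that break acetylcholine down were rare in both cell types. *Ache* (chromosome 5, 137287519 to 137294466, plus strand) encodes acetylcholinesterase, the main enzyme of the synaptic cleft. It appeared in 5 of 20 ES-motor neuron libraries, from 0.0510 to 11.8 CPM where present, and in 3 of 20 ES-astrocyte libraries, from 0.979 to 5.83 CPM, so that the groups overlapped under each treatment. The 11.8 CPM came from a shallow library, and the 2 cell types had 72 and 37 counts in all. *Bche* (ENSMUSG00000027792, chromosome 3, 73635808 to 73708415, minus strand) encodes butyrylcholinesterase, a less specific esterase also made by glia. It had 2 counts in ES-motor neurons, both in control replicate B, and 486 counts in 6 of the 20 ES-astrocyte libraries. The highest were 27.5 CPM (replicate D of IL-1α with TNF-α), 16.9 and 15.4 CPM (replicates C and A of IL-1β with IL-6) and 12 CPM (replicate B of C1Q with C5). Most ES-astrocyte libraries thus had no *Bche* count while a few had many, and control ES-astrocytes had none.

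*Ache*, *Bche* and *Chrna7* fell below the filter on low counts in both comparisons and were tested by permutation of the libraries. In a family of 47 such tests 2 had an unadjusted p under 0.05, and the smallest adjusted p was 0.671. Summed over the 5 treatments, ES-astrocytes held 486 counts of *Bche* against 2 for ES-motor neurons, both in control replicate B. A two-sided permutation test with 100000 resamples gave p = 0.0205 for 20 against 20 libraries (adjusted p = 0.671). That permutation test gave p = 0.635 for *Ache*. With no filter on low counts edgeR's quasi-likelihood test called *Bche* lower in ES-motor neurons (log2 fold change −4.02, Benjamini-Hochberg adjusted p = 0.0484), while its adjusted p was 0.816 with DESeq2 and 0.367 without the shallow libraries.

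*Chrna3* (ENSMUSG00000032303, chromosome 9, 55010111 to 55026562, minus strand) encodes the α3 nicotinic subunit, which is typical of autonomic ganglia. Control ES-astrocytes had 24.8, 10.8, 35.3 and 24.1 CPM in replicates A to D, and those with IL-1α and TNF-α 32.4, 56.7, 44 and 32.0 CPM. With C1Q and C5 the values were 2.02, 38.9, 41.4 and 20.6 CPM. Every library of these 3 groups held the subunit, and every ES-motor neuron library of the same treatments had no count. Some of those ES-motor neuron libraries were shallow, among them all with IL-1α and TNF-α. In these shallow libraries a count of 0 allows from 6.73 to 458 CPM on unscaled totals, limits within or above the ES-astrocyte range. With IL-1β and IL-6 the ES-astrocyte values were 64.4, 70.05, 0.0778 and 15.7 CPM, and with TGF-β2 45.9, 0, 97.3 and 48.1 CPM. In ES-motor neurons 19 libraries had no count, and replicate A of IL-1β with IL-6 had 3.99 CPM from 63 counts. The direction was thus opposite to that of the 4 presynaptic members.

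Control ES-motor neurons had 0 counts of *Chrna3* against 591 in control ES-astrocytes, so the fitted fold in control depends on the prior count. The log2 fold change in control was −10.26 (SE 1.93), with an adjusted p of 0.0316 by the quasi-likelihood test of edgeR (Benjamini-Hochberg). This call did not hold with any 1 ES-motor neuron library left out (0.0916 for A, 0.120 for B, 0.0756 for C, 0.0851 for D), nor with ES-astrocyte replicate B (0.0529), C (0.0919) or D (0.0708) left out. Over all alternatives that adjusted p ran from 5.8e-09 to 0.226. Over the 5 treatments *Chrna3* was 1 of the 10.2% of genes called lower, with a log2 fold change of −7.20 (SE 0.87) and an adjusted p of 7.1e-09 by the same edgeR test with Benjamini-Hochberg adjustment. It was called lower in all 15 alternatives, with log2 fold changes from −10.17 to −3.90. Summed counts were 3367 for ES-astrocytes against 63 for ES-motor neurons, which had 0 without replicate A of IL-1β with IL-6.

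*Chrna4* (ENSMUSG00000027577, chromosome 2, 181018380 to 181043546, minus strand) and *Chrnb2* (ENSMUSG00000027950, chromosome 3, 89746195 to 89764632, minus strand) encode the α4 and β2 subunits, which together form the most common nicotinic receptor of the brain. *Chrna4* was detected in all 20 ES-astrocyte libraries (lowest 6.05, median 38.9, highest 221 CPM) and in 19 of 20 ES-motor neuron libraries (lowest 0, median 19.7, highest 97.8 CPM). In control the 4 ES-motor neuron libraries (9.04, 16.5, 11.5 and 20.0 CPM) lay below the 4 of ES-astrocytes (39.4, 32.2, 61.9 and 22.9 CPM), and under the other 4 treatments the groups overlapped. *Chrnb2* was detected in 20 of 20 ES-astrocyte libraries (lowest 8.55, median 32.3, highest 106.6 CPM) and in 19 of 20 of ES-motor neurons (lowest 0, median 24.0, highest 103 CPM), with overlap under each treatment. Neither was called between the cell types. Over the 5 treatments the log2 fold change was −0.72 (SE 0.34) for *Chrna4*, adjusted p 0.158, and −0.17 (SE 0.35) for *Chrnb2*, adjusted p 0.828, by the quasi-likelihood test of edgeR (Benjamini-Hochberg). In control *Chrnb2* had the opposite sign, 0.78 (SE 0.82), with an adjusted p of 0.857 by that test of edgeR. The sign of the 5-treatment *Chrnb2* value turned without replicate C (0.08) and without the C1Q with C5 libraries (0.03). Of the exon bases of *Chrnb2*, 1365 (16.3%) are shared with *Adar* on the opposite strand, so its counts are uncertain where strand was not used.

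*Chrna7* (chromosome 7, 63098692 to 63212569, minus strand), the α7 subunit, forms receptors by itself. Counts of it appeared in 4 of 20 libraries of ES-motor neurons and 7 of 20 of ES-astrocytes. The highest ES-motor neuron library was control replicate D at 18.1 CPM, and the highest of ES-astrocytes was replicate B of IL-1α with TNF-α at 9.56 CPM. In control the mean was 5.48 ± 8.61 CPM for ES-motor neurons, beside 0.699 ± 0.845 CPM for ES-astrocytes (SD, n = 4), and an exact two-sided permutation test gave p = 0.429, where 0.0286 is the smallest p that 4 against 4 libraries allow.

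Among 12 other nicotinic subunits 5 had a count in the 40 libraries and 2 were tested over the 5 treatments, of which 1, *Chrnb4*, was called lower in ES-motor neurons. *Chrnb4* encodes the β4 subunit, the usual partner of α3, and lies next to *Chrna3* on chromosome 9 at 55028154 to 55048779. It was detected in 14 of 20 ES-astrocyte libraries, with 1121 counts against 1 in ES-motor neurons. Its log2 fold change was −6.92 (SE 1.18), with an adjusted p of 1.1e-05 by the quasi-likelihood test of edgeR (Benjamini-Hochberg). Limma-voom called no gene of this list, and DESeq2 called *Chrnb4* as well. *Chrna5*, the α5 subunit of the same cluster at 54980880 to 55007779, had −0.19 and was not called. Within single ES-astrocyte libraries α3 and β4 did not always go together: *Chrna3* was at 0 and *Chrnb4* at 2.62 CPM in replicate B of TGF-β2, and *Chrnb4* was at 0 in replicates A and B of IL-1β with IL-6 and in replicate D of TGF-β2, where *Chrna3* was at 64.4, 70.05 and 48.1 CPM. Of the 5 muscarinic receptors 4 had a count and 1 was tested over the 5 treatments, *Chrm2*, with a log2 fold change of −0.60, not called by edgeR (0 at an unadjusted p under 0.05) or DESeq2 and called higher by limma-voom.

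Most tested genes of several lists for other cell types were, like *Chrna3*, called lower in ES-motor neurons. Of 10 interneuron markers 4 were tested over the 5 treatments and all 4 were called lower in ES-motor neurons, with a median log2 fold change of −8.01 (−7.62 with genes of a group at 0 set to their bound) beside −0.17 for all genes tested (0.81 with DESeq2 and 0.27 with limma-voom). The list summed to 61.1 to 323 CPM in ES-astrocyte libraries (median 165 CPM) and to 0 to 10.2 CPM in ES-motor neuron libraries (median 0). Its most abundant gene was *Gata3*, a factor of V2b interneurons, and *Evx1* and *Tlx3* were at 0 in all 40 libraries. Of 6 mesenchyme markers 3 of 3 tested were called lower (median −8.19, −8.32 with bounds), led in ES-astrocytes by *Dcn*, with sums of 36.8 to 1119 CPM against at most 5.90 CPM. Of 8 progenitor markers 6 of 7 tested were called lower (median −3.28), with sums of 251 to 857 CPM in ES-astrocytes, where *Top2a* was the most abundant, against 0 to 47.5 CPM. Of 10 astrocyte markers 7 were tested, 6 called lower and 1, *Sox9*, higher, with a median of −5.76. The part of these cells in the result for *Chrna3* was not tested.

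Of 10 neuron markers all were tested over the 5 treatments, 4 were called higher in ES-motor neurons by edgeR, by DESeq2 and by limma-voom and none lower, with 8 at an unadjusted p under 0.05 by edgeR and a median log2 fold change of 0.82. The 4 were *Nefl* (3.72), *Nefm* (3.46), *Stmn2* (1.73) and *Map2* (1.09), neurofilament and microtubule genes, and these folds were smaller than those of the 4 presynaptic members. Markers of the oligodendrocyte lineage (6 genes, 2 tested) and microglia (6 genes, 1 tested) had no gene called and none at an unadjusted p under 0.05 by edgeR or called by DESeq2, while limma-voom called 2 and 1 of them higher. None of 6 skeletal muscle markers passed the filter on low counts. Sums over ES-motor neuron libraries were at most 30.7, 21.8 and 1.2 CPM for these 3 lists.

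In control fewer genes of these lists were called by edgeR's quasi-likelihood test. Of neuron markers 2 of 10 tested were called higher (median log2 fold change 1.25), and of astrocyte markers 2 of 5 were called lower (median −5.92). Of interneuron markers 2 of 3 tested were called lower (median −9.71, −7.25 with bounds), of progenitor markers 2 of 6 (median −3.23) and of mesenchyme markers 1 of 1, *Dcn*. Among the lists of cell type markers, the 4 with a gene called lower in control were also those with most genes called lower over the 5 treatments. The control libraries enter both comparisons, so these results are not independent.

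Of a list of transcription factors of cholinergic neurons, 3 were called higher in ES-motor neurons over the 5 treatments. With log2 fold changes they were *Mnx1* (8.71, SE 0.70), whose promoter drove the GFP used for sorting, *Isl1* (3.32, SE 0.32), which specifies motor neurons, and *Isl2* (5.02, SE 1.00), its paralog. Their adjusted p were 1.15e-13, 2.0e-11 and 0.00013 by the quasi-likelihood test of edgeR (Benjamini-Hochberg). In control 6 of the list were tested, and the same 3 were called higher and none lower by edgeR, DESeq2 and limma-voom (3 at an unadjusted p under 0.05 by edgeR), with a median of 2.21 beside −0.20 for all genes.

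Few genes of substrate supply were called between the cell types. Of 14 genes of choline uptake and phosphatidylcholine turnover 12 were tested over the 5 treatments and none was called by edgeR's quasi-likelihood test (1 at an unadjusted p under 0.05), with a median log2 fold change of −0.08. That 1 was *Slc44a1*, a choline transporter of many tissues, which had −1.48 and an adjusted p of 0.0684 by that test with Benjamini-Hochberg adjustment and was called lower by DESeq2. Limma-voom called another choline transporter of this list, *Slc44a5*, higher. Of 7 genes of acetyl-CoA supply all were tested and 1 was called higher, *Acly*, the ATP citrate lyase that makes cytosolic acetyl-CoA (log2 fold change 1.02, SE 0.16, edgeR adjusted p 2.9e-06). The median of that list was 0.28. Limma-voom called 3 of the 7 higher, *Acly*, *Acss2* and *Slc25a1*, the mitochondrial citrate carrier, and DESeq2 called *Slc25a1* and not *Acly*. Of 7 receptor partners, chaperones and toxin-like modulators of nicotinic receptors, 4 were tested and 1 was called lower, *Ly6h* (−3.40, SE 1.03, edgeR adjusted p 0.0139), with a median of −1.0. DESeq2 called it too and limma-voom did not.

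Of 7 genes of the endplate and of esterase anchoring 3 were tested over the 5 treatments, 1 of them called lower, with a median log2 fold change of 0.69. Of them *Lrp4*, the agrin receptor of muscle, was called lower in ES-motor neurons, with 486 counts in ES-astrocytes against 1. DESeq2 and limma-voom did not call it, and limma-voom called *Agrn* and *Prima1* higher. *Prima1*, the membrane anchor of acetylcholinesterase in brain, was called higher in control (214 counts against 0, at least 89.9-fold higher, edgeR adjusted p 0.0394) and had 2.12 (SE 1.03) over the 5 treatments, edgeR adjusted p 0.171. *Agrn*, the signal that motor neurons send to the endplate, had 0.69 by edgeR. In control 2 genes of this list were tested, with a median of 5.02, or 3.76 with the gene at 0 set to its bound.

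Of 15 genes of other transmitters 7 were tested over the 5 treatments, 5 called lower and 1 higher in ES-motor neurons, with a median log2 fold change of −5.38. The vesicular glutamate transporters *Slc17a6* and *Slc17a8* were at 0 in ES-motor neurons, at least 271-fold and at least 249-fold lower. *Gad2*, which makes GABA, had −5.75 with an adjusted p of 3.0e-07 by the quasi-likelihood test of edgeR (Benjamini-Hochberg). The gene called higher was *Th*, the rate-limiting enzyme of catecholamine synthesis, with a log2 fold change of 5.84 (SE 1.11) and an edgeR adjusted p of 6.5e-05.

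The next comparisons set each stimulus against control within a cell type, to show whether the genes follow what the ES-astrocytes had received. No member was called in any of the 8 comparisons by edgeR's quasi-likelihood test, which had 3 to 6 of the 10 members above its filter, by DESeq2 or by limma-voom. Over all genes edgeR called none (0%) in 7 of them and 1 of 7947 genes (0.0126%) in ES-motor neurons with TGF-β2, with 93 to 322 genes at an unadjusted p under 0.05, while DESeq2 called 0 to 59 genes and limma-voom none. At an unadjusted p under 0.05 edgeR had 3 values of members, all in ES-motor neurons. With IL-1α and TNF-α these were *Slc10a4* (log2 fold change 1.13, SE 0.47, adjusted p 0.990) and *Slc18a3* (1.82, SE 0.80, adjusted p 0.990), and with C1Q and C5 *Chrna4* (1.71, SE 0.68, adjusted p 0.997), by the quasi-likelihood test of edgeR (Benjamini-Hochberg). All 4 libraries with IL-1α and TNF-α were shallow. Without replicate A of that group, the library of 472 CPM, the *Slc18a3* value was −0.00426. At an unadjusted p under 0.05 DESeq2 had 6 values of members in the 8 comparisons and limma-voom 3.

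In ES-motor neurons the level of *Slc5a7* was 26.5 ± 2.79 CPM in control and 7.16 ± 8.5 CPM with IL-1α and TNF-α (SD, n = 4), where it did not pass the filter on low counts. Each of the 4 stimulated libraries lay below the 4 control libraries, and the exact two-sided permutation test gave p = 0.0286, the smallest that 4 against 4 libraries allow, with an adjusted p of 0.671 over the 47 tests. These libraries held 11 counts of *Slc5a7* in all, and their depth allows no firmer statement. *Chat* stood at 14.2 ± 10.2 CPM in control and 2.85 ± 2.46 CPM with IL-1α and TNF-α (SD, n = 4), with overlapping groups and p = 0.0571 by the exact two-sided permutation test (adjusted p = 0.895). With TGF-β2 *Chat* was at 10.6 ± 9.07, with IL-1β and IL-6 at 7.23 ± 12.6 and with C1Q and C5 at 6.07 ± 5.58 CPM, differences from control within 1 SD.

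Whether a stimulus acted differently in the cell types was tested by the interaction contrast itself. No member and none of the 13227 genes tested (0%) was called for any of the 4 stimuli by edgeR's quasi-likelihood test, where 544 to 922 genes had an unadjusted p under 0.05. DESeq2 called 5 to 13 genes for a stimulus and no member. At an unadjusted p under 0.05 edgeR had 5 values of members, of *Slc18a3* with IL-1α and TNF-α, of *Bche* with C1Q and C5, and of *Bche*, *Chrna3* and *Slc5a7* with IL-1β and IL-6.

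The genes whose levels across libraries were most like *Chat* were ranked by Pearson r of log2(CPM + 1). Over the 31 libraries that were not shallow, of both cell types, and 13226 genes, the 5 highest were *Mnx1* (r = 0.88), *Ecel1* (0.88), *Ina* (0.86), *Nr2f1* (0.86) and *Nefl* (0.85). *Slc10a4* ranked 9 (r = 0.83), *Slc5a7* 22 (0.80) and *Slc18a3* 32 (0.77), whereas *Chrnb2* ranked 5770 (0.07) and *Chrna3* 12915 (−0.67). These libraries differ in cell type, which all such r share. Within the 11 ES-motor neuron libraries that were not shallow *Chrnb2* ranked 54 of 13014 genes (r = 0.84), *Slc18a3* 656 (0.65), *Slc10a4* 6208 (0.14) and *Slc5a7* 9334 (−0.15), so *Slc10a4* and *Slc5a7* were among the genes most like *Chat* across the cell types and not among ES-motor neuron libraries. All are descriptions. With Spearman's rho over both cell types 1 of the 5 genes, *Ecel1*, was again among the highest 5.

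**Figure D3:**
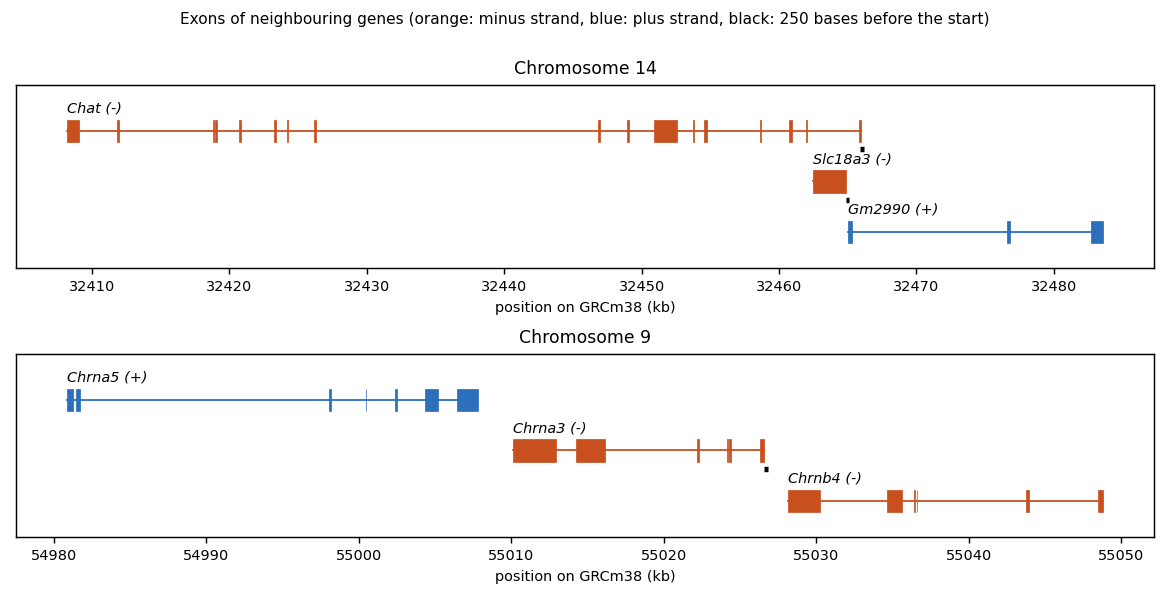
Map of the *Chat* and *Slc18a3* region of chromosome 14 and of the *Chrna5*, *Chrna3* and *Chrnb4* region of chromosome 9 in GRCm38 coordinates, with exons as boxes (orange minus strand, blue plus strand) and the 250 bases before the start in black. *Slc18a3* lies within the span of *Chat*, and *Chrna3* and *Chrnb4* lie side by side on the minus strand.

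Promoters of the 5 members called between the cell types over the 5 treatments are shown, since 4 of them were higher and 1 was lower in the same cells. All 10 members matched a promoter in RefSeq (GRCm38.p6), taken as the 250 bases before the start. Printed, 5′ to 3′ on the strand of the gene, is the part that lies outside exons of protein-coding genes of GENCODE M21. The stretch is chr14:32465990-32466159 (minus) for *Chat*, chr14:32464851-32465100 (minus) for *Slc18a3*, chr17:54299035-54299284 (minus) for *Slc5a7*, chr5:73006654-73006882 (plus) for *Slc10a4* and chr9:55026563-55026812 (minus) for *Chrna3*. The *Slc18a3* stretch lies in an intron of *Chat* and overlaps an exon of the noncoding *Gm2990* on the other strand. Capitals mark CAGCTG, an E-box.
Chat: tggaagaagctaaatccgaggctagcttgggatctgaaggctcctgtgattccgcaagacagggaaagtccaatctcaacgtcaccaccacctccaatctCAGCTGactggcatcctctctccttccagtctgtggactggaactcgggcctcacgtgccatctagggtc
Slc18a3: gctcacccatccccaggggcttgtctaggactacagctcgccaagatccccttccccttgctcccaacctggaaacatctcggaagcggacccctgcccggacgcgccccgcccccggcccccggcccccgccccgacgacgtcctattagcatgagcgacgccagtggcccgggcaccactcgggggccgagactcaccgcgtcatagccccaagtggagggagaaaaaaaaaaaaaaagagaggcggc
Slc5a7: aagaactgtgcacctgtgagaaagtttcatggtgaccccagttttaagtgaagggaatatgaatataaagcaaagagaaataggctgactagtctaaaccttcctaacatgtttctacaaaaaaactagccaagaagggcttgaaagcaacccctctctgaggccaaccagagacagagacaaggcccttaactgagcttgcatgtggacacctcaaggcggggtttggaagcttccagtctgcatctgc
Slc10a4: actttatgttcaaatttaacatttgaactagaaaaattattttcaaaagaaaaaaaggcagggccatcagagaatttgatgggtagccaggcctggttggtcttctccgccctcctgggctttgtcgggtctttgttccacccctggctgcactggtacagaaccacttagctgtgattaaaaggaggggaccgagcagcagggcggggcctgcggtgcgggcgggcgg
Chrna3: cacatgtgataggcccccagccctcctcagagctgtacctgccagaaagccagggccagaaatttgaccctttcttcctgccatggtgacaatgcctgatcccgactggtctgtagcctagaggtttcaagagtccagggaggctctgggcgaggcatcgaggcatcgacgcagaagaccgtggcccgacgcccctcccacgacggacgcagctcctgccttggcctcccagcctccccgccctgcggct

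Motifs, 4 in number, were searched on both strands of the 250 bases before the start, in the 10 members and in all 32851 promoters of the table. CAGCTG was found in 1 member, *Chat*, beginning 150 bases before the start, and in 13% of all promoters. TAATTA, a homeodomain core, was found in no member and in 4.84% of all promoters. TGACGTCA, the cAMP response element, was in no member and 1.55% of all promoters, and TCAGCACC, the left part of the element bound by REST, in no member and 1.32%. None of the 4 motifs contains another, and a match or its lack describes only these windows. GC content was 54.8% for *Chat*, 66% for *Slc18a3*, 45.6% for *Slc5a7*, 54.4% for *Slc10a4* and 63.2% for *Chrna3*, beside a median of 52.4% over all promoters. The genes called higher in ES-motor neurons thus lay on both sides of that median.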

How the data were processed

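The authors deposited 1 table of raw counts per Ensembl gene for the 40 libraries, and no further normalization by the authors was found in its values. Their processing notes name STAR and DESeq2. The version of STAR, the genome build, the annotation, the counting tool and its use of strand were not given in the sources used here. Genes were named from GENCODE M21 (GRCm38), which paired 55141 of 55487 identifiers. Members and lists were chosen with earlier results of these data known.

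Counts were tested with edgeR 4.0.16 in R 4.3.3 (filterByExpr, trimmed means of M-values, robust glmQLFit, glmQLFTest), and calls needed an adjusted p (Benjamini-Hochberg) up to 0.05 and a log2 fold change beyond 1. DESeq2 1.42.0 and limma 3.58.1 (voom with quality weights) served as alternatives. The fits were first tested on simulated counts. Members below the filter were tested by permutation (scipy 1.17.1), exact for 4 against 4 libraries and with 100000 resamples for 20 against 20. Tables and figures used pandas 2.3.3, numpy 2.4.6 and matplotlib 3.10.9 in Python 3.11.15. Named were all 10 members, up to 4 genes of smallest p of each list in either comparison of the cell types, members at an unadjusted p under 0.05 with a stimulus, and the 5 genes most like *Chat*. *Gm2990*, *Adar*, *Ddc*, genes called by 1 tool alone and markers given for their abundance or their 0 counts were chosen after their values were seen. Libraries were grouped by the labels, and none was left out of the main fits.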

Additional observations from a re-analysis of the deposited data

Results flagged for a closer look

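In 29 of the 79 sets of 4 libraries whose values differed at all (100 sets of 1 member in 1 group), 1 library lay far from its 3 partners. By the rule used, chance does this in about 1 set in 20 of values with a normal spread. In 21 of the 29 the other 3 libraries had no count, so that any count met the rule and that rate does not apply. Values are in CPM.

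For the genes of synthesis and loading, *Chat* was at 11.5 in ES-astrocyte replicate D of C1Q with C5 and at 26.0 in ES-motor neuron replicate A of IL-1β with IL-6. *Slc18a3* was at 472 in ES-motor neuron replicate A of IL-1α with TNF-α and at 259 in replicate A of IL-1β with IL-6, and in ES-astrocytes at 14.7 in control replicate D and at 2.52 in replicate B of TGF-β2. *Slc5a7* was at 0.459 in ES-astrocyte replicate C of IL-1α with TNF-α and at 1.41 in replicate B of IL-1β with IL-6. *Slc10a4* was at 8.95 in ES-astrocyte control replicate A and at 12.2 in replicate A of TGF-β2.

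For the esterases, *Ache* in ES-motor neurons was at 0.0510 in control replicate B, 11.8 in replicate A of IL-1α with TNF-α, 3.18 in replicate B of C1Q with C5, 2.28 in replicate A of IL-1β with IL-6 and 2.48 in replicate B of TGF-β2. In ES-astrocytes it was at 4.59 in replicate C of IL-1α with TNF-α, 0.979 in replicate D of IL-1β with IL-6 and 5.83 in replicate D of TGF-β2. *Bche* was at 0.102 in ES-motor neuron control replicate B, and in ES-astrocytes at 27.5 in replicate D of IL-1α with TNF-α, 12 in replicate B of C1Q with C5 and 0.291 in replicate B of TGF-β2.

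For the receptor subunits, *Chrna3* was at 3.99 in ES-motor neuron replicate A of IL-1β with IL-6. *Chrna7* was at 9.56 in ES-astrocyte replicate B of IL-1α with TNF-α and at 0.776 in replicate B of TGF-β2, and in ES-motor neurons at 1.58 in replicate A of IL-1β with IL-6 and at 0.0856 in replicate B of TGF-β2. *Chrnb2* was at 72.9 in ES-astrocyte control replicate A and at 103 in ES-motor neuron replicate A of IL-1β with IL-6.

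Replicate A of IL-1β with IL-6 in ES-motor neurons thus stood apart for 6 of the 10 members, *Chat*, *Slc18a3*, *Ache*, *Chrna3*, *Chrna7* and *Chrnb2*. Its partners B and D were shallow, and a count of 0 there allows up to 37.4 and 20.4 CPM on unscaled totals. The flagged *Ache*, *Chrna3* and *Chrna7* values lay below both limits, so these partners could not show such levels. In partner C, which was not shallow, the limit was 0.497 CPM.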

How the results depend on the processing

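Over the 5 treatments the count of members called was 5 in all 15 alternatives but one: with no filter on low counts *Bche* made it 6. In control it was less stable. The main count of 2 members became 4 with DESeq2, 3 with limma-voom, with an adjusted p up to 0.1 and with all 40 libraries in 1 fit, 0 without the shallow library, and 0 to 3 when 1 library was left out. Calls over all genes in control (228) became 345 with an adjusted p up to 0.1, 763 with DESeq2, 451 with limma-voom, 81 without the shallow library, 433 with all 40 libraries in 1 fit, and 72 to 401 when 1 library was left out. The cause of these shifts was not tested. Over the 5 treatments the 1663 calls became 2820 with no filter, and 448 higher and 1215 lower became 1544 and 854 with limma-voom. The median log2 fold change of all genes in control was −0.20, and 0.22 with limma-voom. For the 5 treatments together it was −0.17, and 0.81 with DESeq2 and 0.27 with limma-voom.

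Correlations of same-letter deviations ran from −0.157 to 0.0752 in the control comparison and from −0.229 to 0.427 in those of a stimulus with control, the highest for replicate A of TGF-β2 in ES-astrocytes. In none of these comparisons did all 4 letters exceed 0.1 or correlate best with their own letter, so the letters were not taken as pairs. With the letter as a replicate block the control comparison called 1 member, *Slc10a4*, and 93 genes, and over the 5 treatments the same 5 members. In ES-motor neurons with TGF-β2 the block called 8 genes in place of 1.

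Among members, directions that turned were those of *Chrnb2* over the 5 treatments (−0.495 to 0.0848 when 1 replicate letter was left out, above 0 without C, and 0.0313 without C1Q with C5, the latter chosen after seeing the data) and *Slc18a3* with IL-1α and TNF-α in ES-motor neurons (−0.0043 to 2.53 when 1 library was left out, the lowest without replicate A). Outside the members *Chrm2*, at −0.60 with edgeR and not called, was called higher by limma-voom. Of the 5 genes most like *Chat*, 1 was shared with Spearman's rho and 2 with no minimum total over both cell types. In the whole window of 300 bases CAGCTG was in 2 members, *Chat* and *Slc10a4*. Without the shallow libraries the comparison of IL-1α and TNF-α with control in ES-motor neurons, and its interaction, could not be fitted, since all 4 libraries are shallow. Depth limits ES-motor neurons most: in 1 library a count of 0 allows up to 458 CPM on its unscaled total.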
